A study of Rattus norvegicus with 146 samples.

Results

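The lung of the rat was set against 4 other organs, the adrenal gland, kidney, liver and spleen, on a quantitative PCR panel of 92 genes. The lung samples were all those labelled with that organ, 30 of the 146 samples of the series. The other organs gave 30 adrenal, 30 kidney, 27 liver and 29 spleen samples. All animals were female rats of 2 inbred strains, the spontaneously hypertensive rat (SHR), in which blood pressure climbs with age without any treatment, and the Wistar-Kyoto rat (WKY), its usual normotensive comparison strain. They were sampled at 8, 10, 12, 16 and 24 weeks of age with 3 rats in each group of strain and age. The exception was WKY at 12 weeks, which had 2 spleen samples and no liver sample. The labels name no transgene and no drug treatment for any group. For the lung every one of the 10 groups of strain and age held 3 samples, 15 of SHR and 15 of WKY.

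The lung carries the whole output of the right heart through a dense bed of capillaries, and the endothelium of those capillaries holds angiotensin-converting enzyme on its surface. The enzyme turns angiotensin I, a fragment of the liver protein angiotensinogen, into the vasoconstrictor angiotensin II, and it also degrades bradykinin. The panel holds genes of this system beside cytokines, adrenergic receptors, signalling proteins and housekeeping genes.

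Each value was a threshold cycle (Ct), the PCR cycle at which the product crossed a set fluorescence, so that an earlier cycle means more template. The level of a gene was taken as the median Ct of its sample minus the Ct of the gene. A level 1 cycle higher stands for 2 times as much RNA relative to the sample's other panel genes if each cycle doubles the product. Levels are compared here for 1 gene across samples and not between genes, because amplification efficiency differs between assays. In bulk tissue, fewer cells of a type and less RNA per cell cannot be told apart.

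The lung samples crossed threshold earlier than those of the other organs. Their median Ct over the panel was 8.68 (the median of 30 samples, range 8.04 to 12.1), against 9.88 in spleen, 10.2 in kidney, 10.5 in adrenal and 10.8 in liver. Of 2760 lung values 37 were missing, or 1.34%, and 27 stood at the lowest Ct in the table, 2.5, all of them for Actb. In 1 lung sample, SHR at 16 weeks, replicate 3, the median Ct was 3.45 cycles later than the lung median, and counts below were repeated without it. In the other organs, 3 adrenal and 2 spleen samples also had a median Ct more than 2 cycles from that of their organ. Among them, the adrenal of WKY at 24 weeks, replicate 3, held 17 values at the lowest Ct. The spleen of SHR at 24 weeks, replicate 2, lacked 25 values. The label of the organ was set beside the markers the panel offers. Ace, the only 1 of 9 endothelial markers considered that is on the panel, was higher in all 30 lung samples than in each of the 116 other samples. The same Ace values are a main result below, so they are no separate check of the label. None of 7 lung epithelial markers considered, such as the surfactant protein genes, is on the panel. Tyrosine hydroxylase (Th), the enzyme of adrenal chromaffin cells, was measured in 20 of 30 lung samples.

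The genes that mark out the lung are shown first by their sequence. The 250 bases before the RefSeq transcription start are printed for Ace and Apln, the 2 genes tested in all organs whose lung level stood farthest above the next organ. They come from RefSeq on the GRCr8 build, 5′ to 3′ on the strand of the gene, with capitals for the matches described next.
Ace, chr10:91409879-91410128, plus strand: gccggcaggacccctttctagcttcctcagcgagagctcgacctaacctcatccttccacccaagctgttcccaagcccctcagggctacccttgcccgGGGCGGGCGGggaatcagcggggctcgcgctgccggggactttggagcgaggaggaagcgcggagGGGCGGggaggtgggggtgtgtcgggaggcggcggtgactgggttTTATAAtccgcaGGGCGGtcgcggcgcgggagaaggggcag
Apln, chrX:132091247-132091496, minus strand: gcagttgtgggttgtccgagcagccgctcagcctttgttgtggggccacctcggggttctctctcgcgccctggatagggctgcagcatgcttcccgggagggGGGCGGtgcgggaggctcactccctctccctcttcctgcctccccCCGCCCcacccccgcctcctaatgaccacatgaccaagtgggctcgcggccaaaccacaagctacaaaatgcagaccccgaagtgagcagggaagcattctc

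A search on both strands for GGGCGG, the core of a GC box, found 4 matches in the Ace window, 2 of them overlapping, and 2 in the Apln window. The letters TATAA matched on both strands of the Ace window at the same overlapping place, 40 and 41 bases before the start, and did not occur in the Apln window. CCAAT occurred in neither window. In 33469 RefSeq windows of this length, 30.5% held GGGCGG, 24.0% TATAA and 34.0% CCAAT on either strand. The matches describe the letters of these windows and were not tested against the levels.

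Against each organ in turn, most panel genes differed from the lung. A limma fit with organ and strain-by-age group as terms and the rat as a random block was used, and a gene was called at a Benjamini-Hochberg adjusted p under 0.05. Against adrenal, 33 of 92 genes were higher in lung (35.9%) and 49 lower (53.3%). Against kidney, 21 of 92 were higher (22.8%) and 47 lower (51.1%). Against liver, 40 of 90 were higher (44.4%) and 44 lower (48.9%). Against spleen, 30 of 91 were higher (33.0%) and 45 lower (49.5%). Over the 89 genes measured at least 10 times in every organ, the median size of the difference in mean level was 0.98 cycles from kidney, 1.09 from spleen, 1.43 from adrenal and 2.01 from liver.

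The direction of these counts hangs on the baseline. On the raw Ct, with no baseline, 54 genes were higher and 19 lower in lung than in adrenal, 59 and 16 against kidney, 67 and 18 against liver, and 54 and 9 against spleen. With the mean of the reference genes Gapdh, Actb and Rpl13a as baseline the counts were 63 and 19, 64 and 17, 61 and 20, and 65 and 11 in the same order. Actb stood at the lowest Ct in 27 of 30 lung samples but in 2 of 30 adrenal and 0 of 27 liver samples, so this baseline is cut off unequally between organs. With Gapdh and Rpl13a alone, a baseline chosen after seeing the data, the counts were 67 and 15, 68 and 16, 69 and 18, and 69 and 10. The median difference over all genes was -0.72 against adrenal, -0.53 against kidney, -0.13 against liver and -0.33 against spleen with the sample median as baseline, and 0.92, 0.94, 1.22 and 0.94 with the reference genes. The cause of this shift was not tested.

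Of 89 genes tested against all 4 organs, 5 were higher in the lung than in each of them (5.62%): Ace, Apln, Cdkn1a, Bmpr2 and Adrb1. Another 21 were lower in the lung than in each organ (23.6%), and 63 were neither. All of the 5 highest genes were also called highest on the raw Ct, with the reference genes, with the median of the completely measured genes, and by rank within the sample. All of these but the rank raised the median lung difference over all genes against every organ. A gene already highest was unlikely to lose its call under them, so this agreement is a weak check. Acta2, Ccr1, S100a4 and Tlr4 were among the genes that joined the 5 under each of these baselines, rank included. The full set of joining genes differed between the baselines, and the plot by baseline shows the counts.

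**Figure D1:**
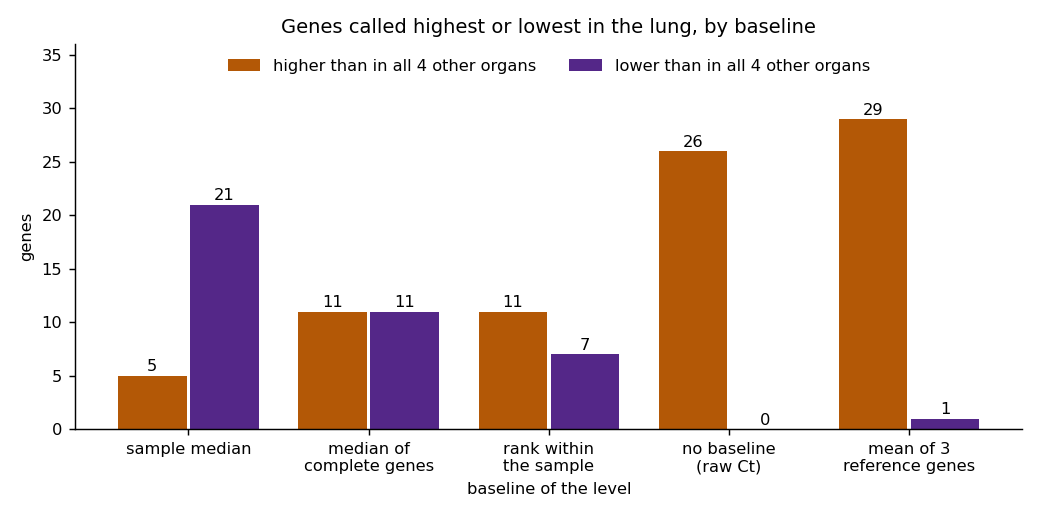
Number of genes (y axis) called higher or lower in the lung than in all 4 other organs, for 5 ways of setting the baseline of a level (x axis). The sample median gave 5 highest and 21 lowest genes, the raw Ct 26 and 0, and the reference genes 29 and 1.

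Ace, which encodes angiotensin-converting enzyme, stood out most. Its level in the lung ran from 2.65 to 4.59 with a median of 4.05 (mean 4.03 ± 0.37, SD, n = 30). In kidney it ran from -1.68 to 1.54 with a median of 0.03, in spleen from -1.49 to 0.15 with a median of -0.52, in adrenal from -2.18 to -0.23 with a median of -0.96, and in liver from -5.70 to -2.71 with a median of -3.98. No sample of another organ reached the lowest lung sample. The lung exceeded kidney by 3.87 ± 0.14 cycles (SE), or 14.6-fold at perfect doubling, spleen by 4.56 ± 0.15, adrenal by 5.11 ± 0.14 and liver by 7.97 ± 0.15. The limma adjusted p against kidney, the nearest organ, was 6.69e-55. The margin over kidney was 4.49 cycles in SHR and 3.25 in WKY when each strain was fitted alone, and SHR kidneys held Ace at -0.59 ± 0.47 (SD over 15 rats), below WKY kidneys at 0.91 ± 0.45. In the lung itself the strains overlapped, at 3.89 ± 0.38 in SHR and 4.16 ± 0.30 in WKY. The lowest lung value, 2.65, was that of SHR at 8 weeks, replicate 3, and the next lowest was 3.37.

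Apln encodes apelin, a peptide made by endothelial cells that acts on the apelin receptor of vessels and heart. Its lung level ran from -0.75 to 1.58 with a median of 1.03 (mean 0.91 ± 0.44, n = 30). The kidney samples ran from -3.54 to -0.71 with a median of -1.89, adrenal from -5.41 to -1.59, liver from -8.42 to -3.20 and spleen from -8.55 to -5.09. Of the 30 lung samples 29 lay above every sample of the other organs, and the exception was again SHR at 8 weeks, replicate 3. The lung exceeded kidney by 2.86 ± 0.20 cycles, adrenal by 4.78 ± 0.20, liver by 5.27 ± 0.20 and spleen by 7.30 ± 0.20, with a limma adjusted p of 8.95e-29 against kidney. At perfect doubling the margin over kidney is 7.25-fold.

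Cdkn1a encodes p21, an inhibitor of cyclin-dependent kinases that halts the cell cycle. It was measured in all 30 lung samples, from -8.95 to -4.73 with a median of -6.57, and less often elsewhere: in 27 of 30 kidney, 23 of 30 adrenal, 22 of 29 spleen and 13 of 27 liver samples. Over the measured values the lung exceeded kidney by 1.81 ± 0.28 cycles, adrenal by 1.95 ± 0.30, spleen by 1.99 ± 0.30 and liver by 2.46 ± 0.36, and the limma adjusted p against kidney was 7.45e-09. With missing values set to the highest Ct of the table the margin over kidney was 2.52. Single samples overlapped, and 2 lung samples lay above all others. In SHR alone too few liver samples, 3 of 15, held a value for the test.

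Bmpr2 and Adrb1 were highest in the lung by smaller margins. Bmpr2 encodes the type II receptor for bone morphogenetic proteins, whose loss-of-function variants are known in heritable pulmonary arterial hypertension. Its lung level ran from 2.52 to 4.20 with a median of 3.99, against 2.29 to 3.92 with a median of 3.26 in adrenal, the next organ, and the samples overlapped. The margin over adrenal was 0.64 ± 0.09 cycles, or 1.56-fold, with a limma adjusted p of 4.07e-11, while kidney lay 1.05 ± 0.09, liver 2.24 ± 0.09 and spleen 2.66 ± 0.09 below the lung.

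Adrb1 encodes the beta-1 adrenergic receptor. Its lung level ran from -0.51 to 0.50 with a median of 0.00, so it lay at the sample median that serves as the baseline, which by itself narrows its spread in the lung, and kidney ran from -1.39 to 0.00 with a median of -0.65. The lung exceeded kidney by 0.62 ± 0.17 cycles (limma adjusted p = 0.000689), spleen by 1.10 ± 0.17, liver by 3.00 ± 0.18 and adrenal by 3.13 ± 0.17. Only 4 lung samples lay above every other sample.

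Esr2, which encodes estrogen receptor beta, had a larger margin than any of these genes but Ace, and could be tested against 3 organs. It was measured in all 30 lung samples, in 26 of 29 spleen, 23 of 30 adrenal and 20 of 30 kidney samples, and in 3 of 27 liver samples, too few for the liver test. Its lung level ran from -5.12 to -1.98 with a median of -3.74, while the spleen samples ran from -9.82 to -5.88 with a median of -6.95. Among the organs other than the lung the highest value was -4.36, in adrenal. The lung exceeded spleen by 3.43 ± 0.23 cycles, or 10.8-fold, adrenal by 3.85 ± 0.24 and kidney by 4.10 ± 0.25, with a limma adjusted p of 2.15e-25 against spleen.

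**Figure D2:**
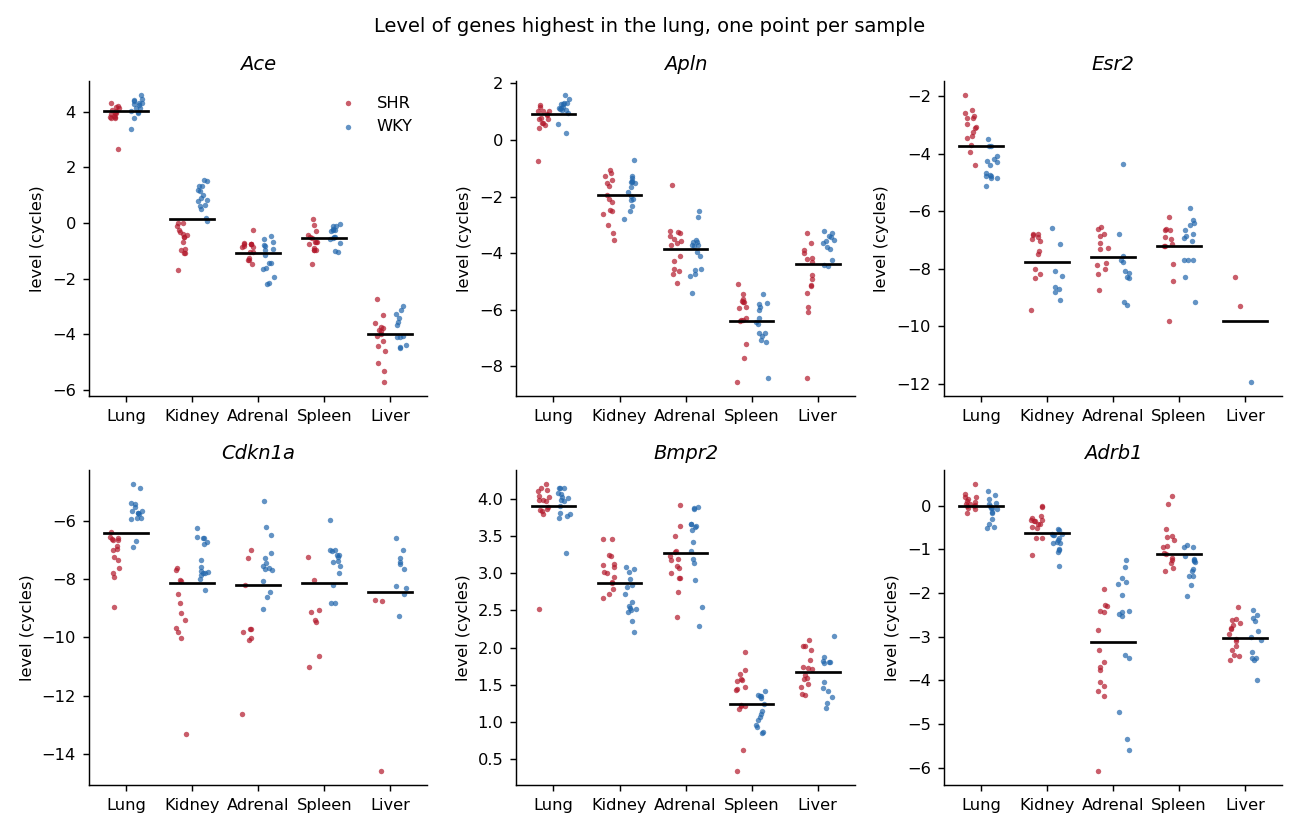
Level in cycles (y axis; sample median Ct minus gene Ct) of 6 genes in the 5 organs (x axis), with 1 point per measured sample, SHR in red and WKY in blue, and black lines for organ means. All 30 lung values of Ace, from 2.65 to 4.59, lie above every other sample, and Esr2 was measured in 3 liver samples.

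Esr1, the gene of estrogen receptor alpha, stood at the other end. Its lung level ran from -8.99 to -5.97, with a median of -6.81, and overlapped those of the other organs except adrenal, which began at -5.08. The lung lay -3.40 ± 0.21 cycles from adrenal, -1.39 ± 0.22 from spleen, -1.31 ± 0.21 from kidney and -0.87 ± 0.22 from liver (limma adjusted p = 0.000149 against liver). In SHR alone the lung mean of Esr1 was not below that of the liver, with a difference of 0.17 cycles. On the raw Ct and with the reference genes the lung was not lowest, at 0.99 and 0.49 cycles above the nearest organ. Cyp19a1, which encodes the aromatase that makes estrogens, was higher in lung than in adrenal by 1.97 cycles and than in liver by 2.28, and the differences of -0.22 from kidney and 0.11 from spleen did not pass the test.

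Beside Ace, 3 other genes of angiotensin production and signalling are described here, Agt, Agtr1a and Agtrap, and each was lower in the lung than in at least 2 other organs. Agt, the gene of angiotensinogen, lay -8.44 ± 0.38 cycles from the liver and -1.95 ± 0.37 from adrenal, and its differences of -0.53 ± 0.37 from kidney and -0.43 ± 0.37 from spleen were not called. Agtr1a, the main angiotensin II receptor, was lower in lung than in liver by -3.83 ± 0.12, kidney by -1.89 ± 0.11 and adrenal by -0.96 ± 0.11 but higher than in spleen by 0.61 ± 0.12. Agtrap, whose protein binds that receptor and promotes its internalisation, lay below adrenal, kidney and liver by -1.46, -2.62 and -1.02 and at 0.09 ± 0.19 from spleen.

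The genes lowest in the lung relative to the sample median included the reference genes Gapdh and Rpl13a. Gapdh, a glycolytic enzyme, lay between -2.55 and -1.21 cycles from the other organs and Rpl13a, a ribosomal protein, between -1.52 and -0.90. The raw Ct of Gapdh was 4.38 ± 0.59 in lung (SD, n = 30), later than in kidney at 3.33 ± 0.35 and adrenal at 3.43 ± 0.44 and close to the spleen at 4.47 ± 0.80. That of Rpl13a was 4.57 ± 0.63 in lung and between 4.36 and 5.48 elsewhere. Actb, cytoskeletal actin, was also called lowest, but it stood at the lowest Ct of 2.5 in 27 of 30 lung samples and in 22 of 29 spleen samples. Its lung level is therefore only a lower bound and no gap is given for it. With values at the lowest Ct left out, neither Actb nor Hspd1 could be tested against all 4 organs, and 19 genes were called lowest.

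Beyond them, Tlr3, Mif and Hspd1 were among the lowest genes with the widest gaps. Hspd1, the mitochondrial chaperonin HSP60, lay -1.05 ± 0.16 from spleen and -2.98 ± 0.16 from kidney. In adrenal 20 of 29 values of Hspd1 stood at the lowest Ct, so the measured -4.27 cycles bounds that gap from 1 side only. Mif, macrophage migration inhibitory factor, lay -1.16 ± 0.09 from spleen and -3.38 ± 0.09 from kidney. Tlr3, the endosomal sensor of double-stranded RNA, ran from -0.06 to 1.43 in lung and lay -1.56 ± 0.11 from spleen and -2.83 ± 0.11 from adrenal. Of these calls, that of Tlr3 was the 1 that held with the 3 reference genes, at -0.29 cycles from spleen, and it was lost with Gapdh and Rpl13a alone, at -0.20. On the raw Ct Tlr3 lay -0.12 cycles from the nearest organ, which did not pass the test, and no gene was lowest.

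**Figure D3:**
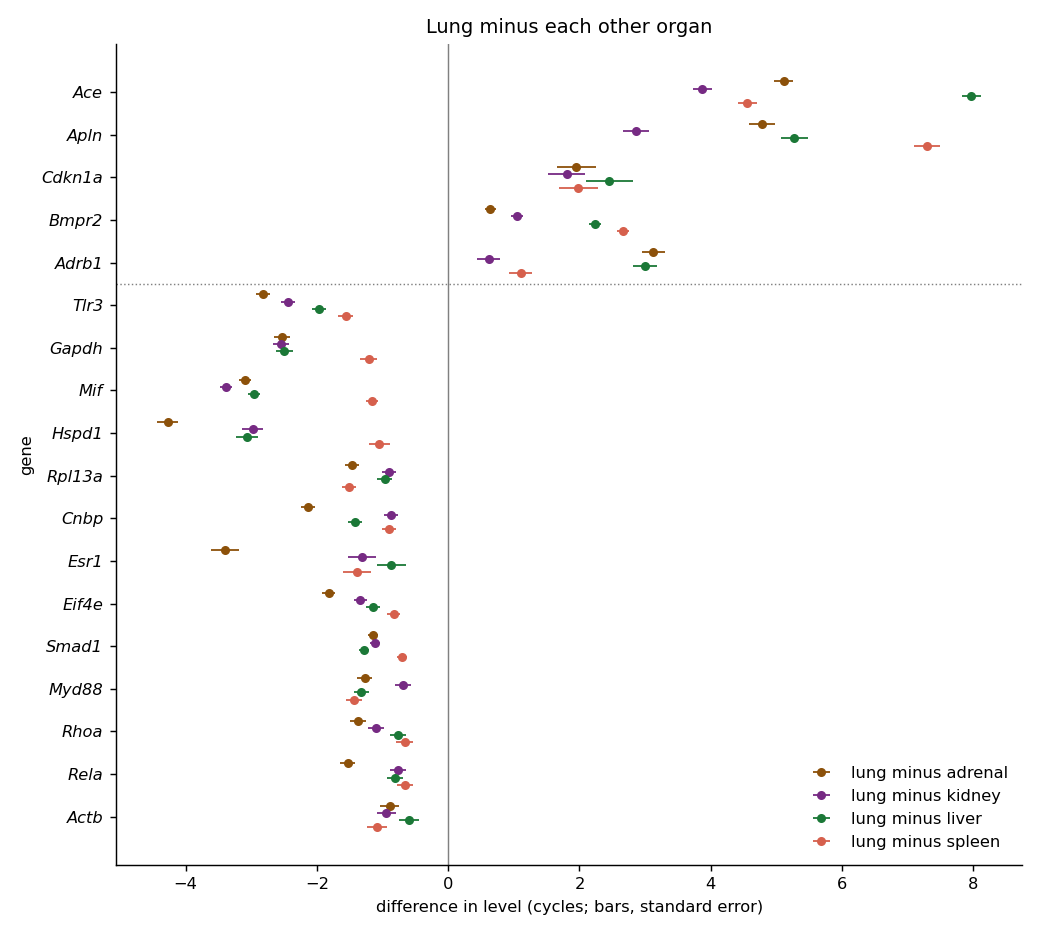
Lung minus each other organ in cycles (x axis; points are fitted differences, bars standard errors, colours the 4 organs) for the 5 highest genes and 13 of the lowest genes with the widest gaps (y axis). The differences of Ace run from 3.87 to 7.97, and those of Tlr3 from -2.83 to -1.56. The points of Actb and the adrenal point of Hspd1 rest on values at the lowest Ct and are bounds or of unknown size.

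Genes of signalling and gene regulation filled the rest of the low end. Cnbp, Eif4e, Smad1, Myd88, Rhoa and Rela lay between -0.87 and -0.66 cycles from the nearest organ, and each turned to a higher lung level on the raw Ct and with the reference genes. Of the 6 innate immune and NF-kB genes, 4 were lowest in the lung (Tlr3, Myd88, Rela and Hmgb1), beside 23.6% of all genes. The median of all 6 was -1.39 against adrenal and -0.52 against spleen, beside -0.72 and -0.33 for all genes. Tlr4, the receptor for bacterial lipopolysaccharide, went the other way within this list. It was higher in lung than in adrenal by 2.07 ± 0.09, liver by 1.82 ± 0.09 and kidney by 1.32 ± 0.09, and lower than in spleen by -0.20 ± 0.09 (limma adjusted p = 0.0385). On the raw Ct, with the reference genes, with the completely measured genes and by rank, Tlr4 was called highest in the lung.

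Among 12 cytokines, chemokines and their receptors, most were lower in lung than in spleen and more were higher than lower against each other organ. Of these, 8 were higher and 2 lower in lung than in adrenal, 7 higher and 2 lower than in kidney, 5 higher and 4 lower than in liver, and 1 higher and 9 lower than in spleen. Their medians were 0.92, 0.56, 0.15 and -1.25 cycles in that order, beside -0.72, -0.53, -0.13 and -0.33 for all genes. The shares of all genes higher and lower in lung were 35.9% and 53.3% against adrenal and 22.8% and 51.1% against kidney. They were 44.4% and 48.9% against liver and 33.0% and 49.5% against spleen. Tnf, a macrophage cytokine, was above adrenal by 2.33, liver by 1.80 and kidney by 0.63 and under spleen by -0.53. On the raw Ct and with the reference genes Tnf was called highest in the lung. Il6 lay -6.51 ± 0.21 from spleen and 1.55 ± 0.28, 1.08 ± 0.21 and 0.47 ± 0.21 from liver, adrenal and kidney. Ccl5, a T cell chemokine, lay 3.12 from kidney, 1.64 from adrenal and -1.34 from spleen. Ccr1, a chemokine receptor of monocytes and neutrophils, was called above liver by 2.54 ± 0.14, kidney by 2.33 ± 0.14 and adrenal by 0.80 ± 0.14, and its 0.15 ± 0.14 over spleen was not called. Spp1, osteopontin, was far lower in lung than in adrenal (-9.44 ± 0.25) and kidney (-7.91 ± 0.25). Some adrenal values of Spp1 stood at the lowest Ct, so the measured gap to adrenal is a bound from 1 side only.

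In all, 15 of the 89 genes were called higher in the lung than in 3 organs but not in the remaining one. In 6 of them the spleen was higher than the lung (Cd86, Il6, Rgs1, Tgfb1, Tlr4 and Tnf). In 2 it was the kidney (Nox4 and Adra1a), and in 1 the adrenal (Npr1, a natriuretic peptide receptor). In the other 6 the remaining organ was not told apart from the lung: Acta2, Ccr1 and S100a4 from spleen, and Fmo2, Fosl1 and Hcrtr1 from kidney. Nox4, an NADPH oxidase subunit best known from kidney tubules, showed the widest range of these, at 7.28 ± 0.25 above spleen, 5.90 ± 0.25 above liver, 4.97 ± 0.25 above adrenal and -3.21 ± 0.24 from kidney. S100a4, a calcium-binding protein of fibroblasts and macrophages, was 3.88, 3.09 and 1.24 cycles above liver, adrenal and kidney. These calls are relative to the sample median. On the raw Ct and with the reference genes, Tlr4 and Tnf were called highest in the lung, above spleen too. So were the 6 genes whose remaining organ was not told apart from the lung.

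Of the 8 angiogenesis and endothelial genes, 7 were higher in lung than in liver and 6 than in spleen, with medians of 3.46 and 1.49, while 3 were higher and 3 lower against adrenal and likewise against kidney. Over all genes 44.4% were higher than in liver and 33.0% than in spleen, with medians of -0.13 and -0.33. Against adrenal 35.9% of all genes were higher and 53.3% lower, and against kidney 22.8% and 51.1%. Lipg, endothelial lipase, was 4.90 above liver and 1.93 above spleen, with no call against adrenal or kidney. Npr1 was -2.32 from adrenal and 2.24 from spleen. By Pearson correlation over the means of the 5 organs, the genes most like Ace were Cdkn1a (0.91), Ltb4r (0.85), Fosl1 (0.85), Fmo2 (0.85) and Acta2 (0.84). These describe 5 points that share the same samples and baseline.

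Of 4 genes of catecholamine synthesis and adrenergic receptors, Adrb1 was the 1 highest in the lung. Th, whose enzyme makes the precursor of noradrenaline and adrenaline, lay -14.02 ± 0.29 cycles from adrenal. Adra1a, an alpha-1 adrenergic receptor, was above liver by 3.97 ± 0.28, spleen by 1.56 ± 0.27 and adrenal by 1.43 ± 0.27 and lay -1.16 ± 0.27 from kidney. Of 5 vasoactive peptide and receptor genes, 4 were higher in lung than in liver and 3 of the 4 tested were higher than in spleen, beside 44.4% and 33.0% of all genes. Hcrtr1, an orexin receptor, was above liver by 3.04 ± 0.30, spleen by 1.25 ± 0.29 and adrenal by 1.17 ± 0.28.

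In the list of lipid and eicosanoid metabolism, 5 of 7 genes were lower in lung than in liver and 2 higher, with a median of -3.82, beside 48.9% lower, 44.4% higher and a median of -0.13 over all genes. Hsd17b13, a lipid droplet protein of hepatocytes, lay -6.12 ± 0.21 cycles from liver. Ptgr1, which inactivates prostaglandins and leukotriene B4, lay -4.47 ± 0.10 from adrenal, -4.23 ± 0.11 from liver and -3.05 ± 0.10 from kidney, and was above spleen by 1.32 ± 0.10. Ltb4r, a receptor for leukotriene B4, was higher in lung than in liver by 2.63 ± 0.29 and than in adrenal by 1.14 ± 0.28. Of 6 lysosomal and amino acid genes, 4 were lower and none higher than in kidney, beside 51.1% and 22.8% of all genes. Ctsl, cathepsin L, lay -4.10 ± 0.09 from kidney, and Arg1, the arginase of the urea cycle, lay -7.87 ± 0.19 from liver but above spleen by 2.67 ± 0.19.

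Among 8 genes of extracellular matrix, adhesion and contraction the directions were mixed, with 4 higher and 4 lower against adrenal and likewise against kidney, beside 35.9% higher and 53.3% lower than adrenal and 22.8% and 51.1% against kidney over all genes. Acta2 was above liver by 3.17 ± 0.22 cycles, kidney by 0.85 ± 0.22 and adrenal by 0.80 ± 0.22. Smad3, a transducer of TGF-beta signals, lay -4.51 ± 0.16 from liver and above adrenal by 1.43 ± 0.15. All 4 lymphocyte and leukocyte regulators were higher in lung than in liver, with a median of 2.59, and 3 of 4 were lower than in spleen, with a median of -1.09. Over all genes 44.4% were higher than in liver and 49.5% lower than in spleen. Ebf1, a B cell transcription factor, lay -2.99 ± 0.16 from spleen. Of 3 redox genes, Fmo2, a flavin monooxygenase known for its expression in lung, was above liver by 5.81 ± 0.18, adrenal by 1.83 ± 0.18 and spleen by 1.32 ± 0.18, and its -0.05 ± 0.17 from kidney was not called.

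Of 8 transcription factor and cell cycle genes, 4 were higher and 4 lower than in adrenal, and 1 was higher and 2 lower than in kidney. Over all genes 35.9% were higher and 53.3% lower than in adrenal, and 22.8% and 51.1% than in kidney. Bcl2, an inhibitor of apoptosis, was above adrenal by 2.19 ± 0.25 cycles and liver by 1.31 ± 0.25. Jun, a subunit of the AP-1 factor, lay -3.13 ± 0.11 from adrenal and above spleen by 1.44 ± 0.11. Hif1a, the oxygen-regulated subunit of hypoxia-inducible factor, lay -1.08 ± 0.13 from adrenal, -1.08 ± 0.13 from kidney and -0.81 ± 0.13 from liver. Of the 2 intracellular signalling genes, Itpr1, a calcium release channel, lay -2.46 ± 0.17 from kidney. Fkbp1a, the binding protein of the drug tacrolimus, was above spleen by 0.36 ± 0.10. It lay -1.09 ± 0.10 from adrenal and was also called lower than in liver. These directions are relative to the sample median, and the median of all genes shifts with the baseline as given above.

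The lungs of the strains were compared next, as the mean over the 5 ages of SHR minus WKY, in a limma fit of the 10 lung groups. Of 89 genes, 10 differed (11.2%), 4 higher and 6 lower in SHR. The median over all genes was -0.01 cycles. Without the late SHR sample of 16 weeks 9 of these genes remained called, all but Acta2. Without SHR at 8 weeks, replicate 3, the sample with the lowest Ace, all 10 remained and Itga5 and Thbs1 were called too, giving 12.

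Cd36, a scavenger receptor and fatty acid transporter of macrophages, endothelium and fat, was the most changed in size. In WKY lungs its level ran from 3.15 to 4.85 with a median of 4.35, and in SHR lungs from -2.57 to 0.49 with a median of -0.08, so the strains did not overlap in any rat. SHR lay -4.46 ± 0.22 cycles from WKY, or 22.1-fold lower at perfect doubling, with a limma adjusted p of 1.56e-14. Some SHR colonies are known to carry a defective Cd36 gene, and whether these rats do was not tested. By age the difference was -5.38 at 8 weeks, -4.70 at 10, -4.13 at 12, -4.21 at 16 and -3.91 at 24 weeks, each ± 0.48.

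Ephx2 encodes soluble epoxide hydrolase, which breaks down vasodilator epoxides of arachidonic acid. It ran from -4.88 to -3.74 in WKY lungs and from -9.80 to -6.88 in the 14 SHR lungs with a value, again without overlap. The difference was -4.09 ± 0.15 cycles, or 17.1-fold lower in SHR, with a limma adjusted p of 5.18e-16, and it was called at each of the 5 ages. Agt was lower in SHR lung by -2.27 ± 0.19 cycles (limma adjusted p = 1.13e-09), with 14 of 15 SHR lungs below every WKY lung. The WKY lungs ran from -1.73 to 0.57 with a median of -0.65, and the SHR lungs from -4.67 to -1.36 with a median of -2.72. At 12 weeks the difference of Agt was -1.16 ± 0.43 and was not called, while it lay between -2.76 and -2.36 at the other ages.

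Cdkn1a, one of the genes highest in the lung, was lower in SHR lung by -1.42 ± 0.21 cycles, or 2.68-fold (limma adjusted p = 1.25e-05). WKY lungs ran from -6.91 to -4.73 with a median of -5.71, and SHR lungs from -8.95 to -6.37 with a median of -6.95. Of the 15 SHR lungs 8 lay below every WKY lung. Esr2 was higher in SHR lung by 1.29 ± 0.20 cycles, or 2.45-fold (limma adjusted p = 3.69e-05). SHR lungs ran from -4.39 to -1.98 with a median of -3.07, and 12 of the 15 lay above every WKY lung, which ran from -5.12 to -3.50. Esr1 was also higher in SHR lung, by 0.88 ± 0.23 cycles (limma adjusted p = 0.00793), with 7 of 15 SHR lungs above all WKY lungs. Both estrogen receptor genes were higher in SHR at each of the 5 ages.

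The remaining differences were smaller. Rgs1, a regulator of G protein signalling in lymphocytes, was lower in SHR by -0.91 ± 0.20 cycles and Ccr1 by -0.51 ± 0.13. Il6 was higher in SHR by 0.76 ± 0.18 cycles, with the difference at 8 weeks at -0.20 ± 0.39 and those at the later ages between 0.61 and 1.37. Acta2, smooth muscle actin, was higher by 0.62 ± 0.20 cycles (limma adjusted p = 0.0413), and its call was lost in 19 of 30 fits that left out 1 rat. Ace, Apln, Bmpr2 and Adrb1 did not pass the strain test in the lung.

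**Figure D4:**
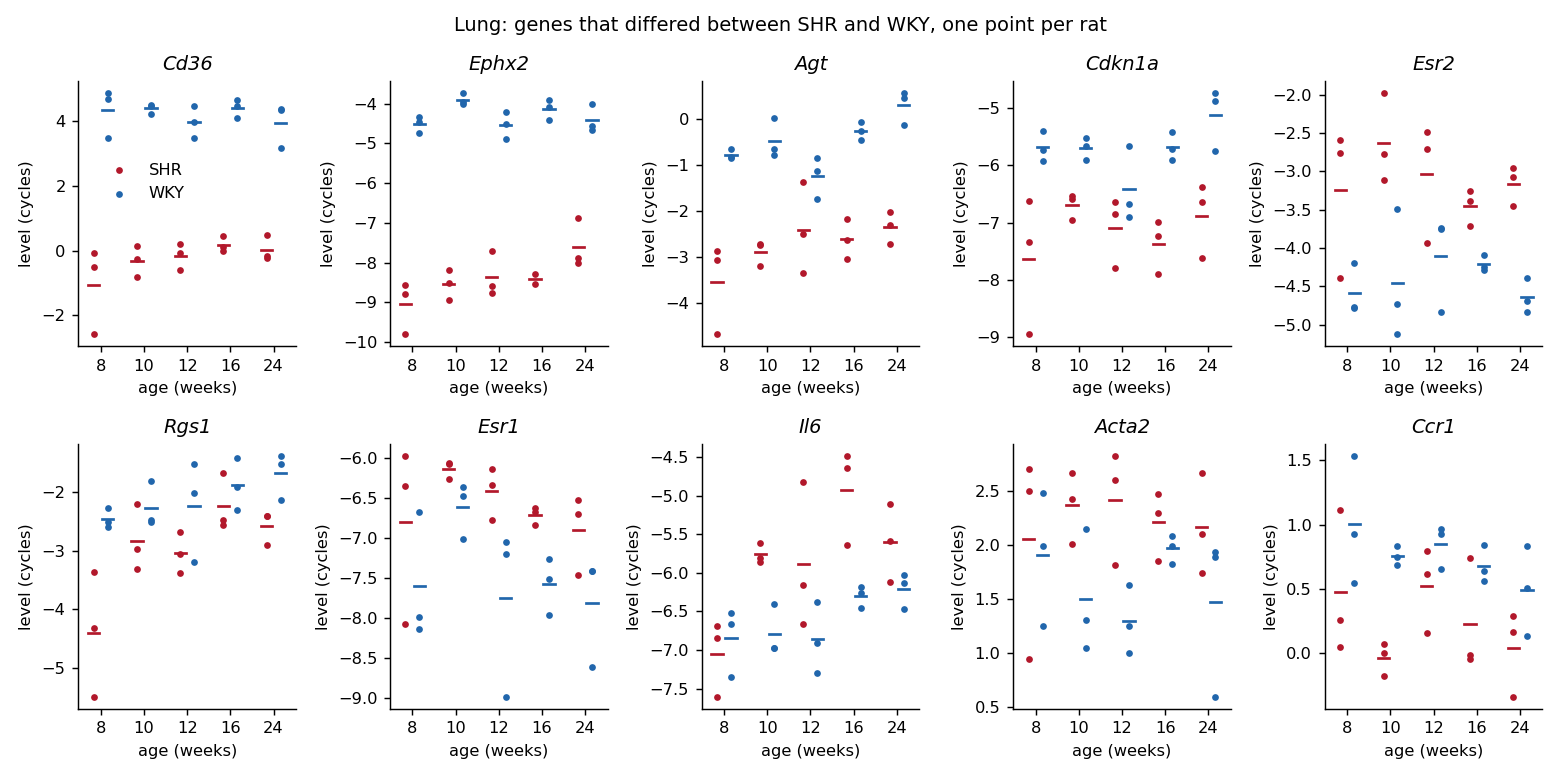
Level in cycles (y axis) of the 10 genes that differed between strains in the lung, by age in weeks (x axis), with 1 point per rat and short lines for group means, SHR in red and WKY in blue. The strains do not overlap for Cd36 and Ephx2, with all SHR values of Cd36 at or below 0.49 and all WKY values at or above 3.15.

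At single ages, with 3 rats against 3, 6 genes were called at 8 weeks (6.74%), 4 at 10 weeks (4.49%), 2 at 12 weeks (2.25%), 5 at 16 weeks (5.62%) and 4 at 24 weeks (4.49%). Cd36 and Ephx2 were called at every age. No gene passed the limma test for a strain difference that changes with age (0%), with 2 at an unadjusted p under 0.05. No gene passed the test for a change of the mean of both strains with age (0%), with 12 at an unadjusted p under 0.05. The smallest adjusted p for age was 0.0836, for Il6 and Rgs1. Il6 averaged -6.95 cycles at 8 weeks and -5.61 at 16 weeks.

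A test of whether the strain difference in the lung departs from its mean in the other 4 organs used the 4 ages at which every organ had both strains, 8, 10, 16 and 24 weeks. For 1 spleen sample, SHR at 16 weeks, replicate 1, the strain field of the labels reads WKY while its title, source name and description read SHR, and it was used as SHR. The test called 4 of 82 genes (4.88%), with 8 at an unadjusted p under 0.05. These were Cd36, Agt, Rgs1 and Esr1, and the departures of all 4 were also called without that spleen sample. With Gapdh and Rpl13a as baseline that of Agt was not called, at -1.81 cycles (limma adjusted p = 0.0742). For Cd36, SHR minus WKY was -4.55 in lung, -2.01 in kidney, -1.45 in spleen, -1.29 in liver and 1.11 in adrenal, each ± 0.43. The lung differed from the mean of the others by -3.63 ± 0.46 cycles (limma adjusted p = 2.16e-10). For Agt the strain difference was -2.54 in lung and -2.14 in kidney but -0.35 in liver, -0.21 in spleen and 0.77 in adrenal, with standard errors of 0.56 to 0.58, and the lung departed from the mean by -2.06 ± 0.61 (limma adjusted p = 0.0197).

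Rgs1 was lower in SHR than in WKY in the lung (-0.94 ± 0.27) and higher in liver (0.82 ± 0.27) and adrenal (0.73 ± 0.27), with 0.70 ± 0.28 in spleen and 0.58 ± 0.29 in kidney not past the test. The lung departed from the mean of the others by -1.64 ± 0.29 cycles (limma adjusted p = 6.84e-06). Esr1 was higher in SHR in lung (0.77 ± 0.27) and adrenal (0.86 ± 0.27) and lower in liver (-1.33 ± 0.27) and spleen (-0.81 ± 0.27), and its -0.73 ± 0.27 in kidney was not called. Its departure was 1.27 ± 0.29 cycles (limma adjusted p = 0.000643). Ephx2, in contrast, was lower in SHR by -4.16 in the lung and -4.72 on average elsewhere, and the difference between these of 0.54 ± 0.31 did not pass the test. Ace and Apln departed by 0.09 ± 0.21 and -0.09 ± 0.33 cycles, neither past the test.

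**Figure D5:**
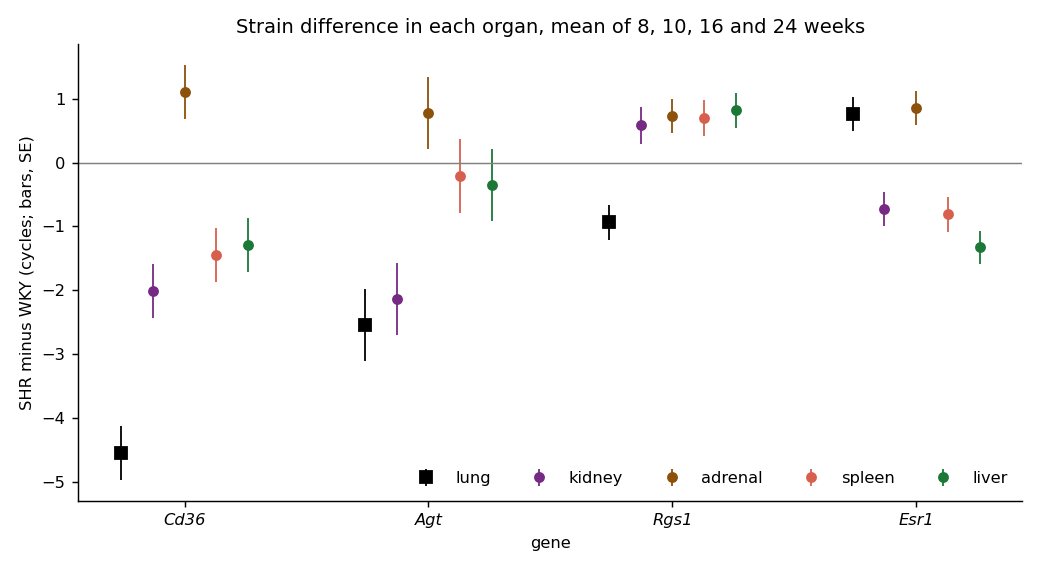
SHR minus WKY in cycles (y axis; mean of 4 ages, bars standard errors) for the 4 genes (x axis) whose strain difference in the lung departed from the other organs, with squares for the lung and circles for the other organs. For Rgs1 the lung is at -0.94 while the other organs lie between 0.58 and 0.82.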

How the data were processed

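The threshold cycles are the values the authors deposited before normalization, as a matrix of 92 genes by 146 samples, each in PCR cycles (Ct). Per the labels' protocols, total RNA was purified on columns, reverse transcribed and pre-amplified for 12 cycles, and 30 cycles of PCR with an intercalating dye were run on 2 microfluidic arrays of 96 by 96. The labels do not tie samples or assays to an array. The deposited normalized values and fold changes were not used. The age that the labels give as 24 weeks is 23 in the column headers, and 2 adrenal columns share a header and were used by group only. Replicate numbers were taken to name the same rat in each organ. Deviations from group means of the lung and another organ of 1 rat correlated from -0.61 to 0.74 (median 0.11, 114 pairs).

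From these values, levels were computed as the sample median minus the gene, and limma 3.58.1 in R 4.3.3 was fitted across all genes, tested on simulated data first. A gene was tested against an organ where each had at least 10 values, and between strains where each lung group had at least 2. The assay gives no read depth. The number of rats and the lowest Ct of 2.5 limit the precision. Nothing says whether the RNA of replicates was extracted separately beyond their labels as separate rats. The genes named are Ace, the highest and lowest genes with the widest gaps (up to 15 each), those past the strain tests, the 5 most like Ace, and members of 15 gene lists. Some genes under this rule are not reported here, though counts over all genes include them. Alternatives changed the baseline, missing and lowest Ct values, the block, the samples and the strain. Genes, lists and tests were chosen with earlier results of these data known. Of the 92 gene names 89 matched RefSeq symbols and 1 a synonym.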

Additional observations from a re-analysis of the deposited data

Results flagged for a closer look

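In 4 genes the difference between SHR and WKY in the lung departed from its mean in the other 4 organs, by a test of that difference in 1 limma fit over all organs with the rat as a block. For Cd36 the departure was -3.63 cycles. The lung difference kept its sign at every age, and the adrenal was the organ in which Cd36 was higher in SHR. That adrenal difference, 1.11 ± 0.43 cycles, passed the test narrowly (limma adjusted p = 0.0469). It includes 3 adrenal samples with a median Ct more than 2 cycles from that of the organ. For Agt it was -2.06 cycles, and the kidney difference of -2.14 lay close to that of the lung, at -2.54. For Rgs1 it was -1.64 cycles. For Esr1 it was 1.27 cycles, and the adrenal moved in the same direction as the lung.

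The departure of Cd36 ranged from -3.79 to -3.25 cycles over 41 alternatives and was called in each. That of Esr1 was called in 38 of 39 alternatives in which it could be tested, that of Rgs1 in 33 of 35 and that of Agt in 31 of 39.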

How the results depend on the processing

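The number of genes highest in the lung, 5 with the sample median as baseline, became 26 on the raw Ct, 29 with the reference genes, 34 with Gapdh and Rpl13a alone, 11 with the median of the completely measured genes and 11 by rank within the sample. The number lowest, 21, became 0, 1, 0, 11 and 7 in the same order. Leaving out 1 rat in turn gave 5 highest genes each time and 20 to 22 lowest. Fits with no replicate block, or with the rat as a fixed replicate block, gave 5 and 21 as well, so the pairing of organs by rat changed no such count. Leaving out every sample with a median Ct more than 2 cycles from that of its organ gave 5 and 23. Without the late lung sample of SHR at 16 weeks the counts were 5 and 21, and without the spleen sample of SHR at 16 weeks, replicate 1, 5 and 20. Both, and the baseline of Gapdh and Rpl13a, under which 3 genes in place of 4 departed from the other organs in strain difference, were chosen after seeing the data.

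The gap to the next lowest organ turned positive on the raw Ct, with the reference genes and with Gapdh and Rpl13a alone for Gapdh (0.087, 0.058 and 0.151 cycles), Mif (0.14, 0.11 and 0.203), Hspd1 (0.25, 0.22 and 0.312), Rpl13a (0.89, 0.56 and 0.824), Cnbp (0.62, 0.59 and 0.849), Esr1 (0.99, 0.49 and 0.866), Eif4e (0.71, 0.44 and 0.586), Smad1 (0.60, 0.57 and 0.854), Myd88 (0.81, 0.77 and 1.03), Rhoa (1.09, 0.61 and 0.969), Rela (1.05, 0.70 and 0.957) and Actb (1.26, 0.76 and 1.14). By rank within the sample, as a share of the panel, it turned positive for Gapdh (0.0058), Rpl13a (0.0608), Cnbp (0.0262), Eif4e (0.0178), Myd88 (0.0013), Rhoa (0.0734), Rela (0.0095) and Actb (0.0289). For Esr1 it was 0.17 in SHR alone. The cause was not tested. Of 1417 values for named genes under the alternatives, 1325 kept their direction and call, 47 lost the call and these 45 reversed.

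The count of genes that differed between strains in the lung, 10, was 6 on the raw Ct and 16 with the completely measured genes, and 8 to 12 without each rat in turn. Leaving out SHR at 16 weeks, replicate 1 or 2, left Ephx2 too few values for its test. The 21 calls of a gene at an age became 13 on the raw Ct and 13 to 27 without each rat, with 13 without SHR at 16 weeks, replicate 1. The count for change with age, 0, was 1 with the completely measured genes, 2 without the samples of 12 weeks, 0 to 3 without each rat, and 17 with a replicate block within age, where same-numbered rats of different strains share only a number. The count for the strain difference against other organs, 4, was 1 on the raw Ct, 2 with missing values set to the highest Ct, and 1 to 5 without each rat. It was 1 without SHR at 24 weeks, replicate 1 or 3, and 2 without SHR at 10 weeks, replicate 1, or WKY at 10 weeks, replicate 1 or 3, where Rgs1 in each case, and Agt and Esr1 at 24 weeks, had too few values for the test, and where Agt lost its call at 10 weeks.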

Other observations

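Some genes varied widely among lung samples of the same strain and age. The pooled SD within these groups was 2.15 cycles for Nts, the gene of neurotensin, 1.49 for Il10 and 1.48 for Zbtb16, beside 0.175 for Mif. Nts had too few values for the strain test in the lung, and Il10 and Zbtb16 did not pass it. The median SD over genes was 0.46 cycles across lung samples, 0.45 across liver, 0.50 across kidney, 0.69 across spleen and 0.69 across adrenal. Nts, measured in 26 of 30 lung samples and in 4 of 29 spleen samples, lay -4.22 ± 0.44 cycles from adrenal, -3.80 ± 0.48 from liver and -1.81 ± 0.55 from kidney. Only 68 of the 116 samples of the other organs held a value of Nts. Missing values were left out, so these differences describe the samples in which it was measured.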
